A study of Equus caballus with 24 samples.

Results

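The osteoblast and osteocyte genes RUNX2, SP7, ALPL, BGLAP, IBSP, SPP1, DMP1, PHEX, SOST and MEPE were followed through all libraries of a study of body size in Debao ponies (DPs), a short breed, and Mongolian horses (MHs), a taller one. These 10 genes were taken by symbol from the 24232 genes of the deposited read table and from the 24248 genes of the deposited RPKM table, and each symbol matched 1 gene in both. RNA came from the epiphysis, the end of a long bone, and from the pituitary of 12 healthy females, 6 of each breed, with 3 juveniles (under 3 years) and 3 adults per breed. The 24 libraries form 8 groups of 3. DPLBJ and DPLBA are the juvenile and adult DP long bone, MHLBJ and MHLBA those of MHs, and DPPJ, DPPA, MHPJ and MHPA the matching pituitary groups. No animal was treated. Each library came from a piece of whole tissue, so its cells were mixed.

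Osteoblasts form bone and arise from mesenchymal progenitors under the transcription factor RUNX2 and then SP7 (osterix). They secrete a collagen matrix and mineralize it with the help of alkaline phosphatase (ALPL). They also secrete acidic proteins such as bone sialoprotein (IBSP), osteopontin (SPP1) and osteocalcin (BGLAP). Osteoblasts that become enclosed in the matrix turn into osteocytes, which make DMP1, PHEX and MEPE, proteins of phosphate handling and mineral, and SOST (sclerostin), a secreted inhibitor of WNT signaling. SPP1, MEPE, IBSP and DMP1 belong to a family of acidic matrix proteins, and in the RefSeq annotation of the horse assembly TB-T2T they are neighbouring protein-coding genes, followed by DSPP.

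Between 11616518 and 27007342 reads were counted on genes per long bone library, and between 11433209 and 23573036 per pituitary library. A single long bone library stood apart. DPLBA replicate 2 had 0 reads for 15 genes that had at least 100 reads in each of the other 11 long bone libraries, and BGLAP was 1 of them. No other long bone library had such a gene. Of the 12 pituitary libraries, 5 (DPPA replicate 1, MHPA replicate 1 and all 3 of MHPJ) had at most 14.7 CPM (read counts scaled to library size) summed over the 6 anterior pituitary markers found, which include growth hormone and prolactin. The other 7 had at least 11112. In MHPJ replicate 2, the 7 striated muscle markers found summed to 1389 CPM, against 7.28 to 21.0 in the other pituitary libraries.

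The bone genes took a large share of the long bone reads and almost none of the pituitary reads. Together they held between 0.459% and 3.35% of the reads of a long bone library. The median share was 2.88% in DPLBA, 1.56% in DPLBJ, 1.23% in MHLBJ and 0.529% in MHLBA. The ranges of the 4 groups overlapped except that the lowest DPLBA share, 1.998%, was above the highest MHLBA share, 1.82%. The pituitary shares ran from 0.00524% to 0.231%. A smaller share can come from fewer bone cells in the piece or from less RNA per cell, and bulk libraries cannot tell these apart.

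RPKM (reads scaled to gene length and library size) allows levels to be ordered between genes. Over the 12 long bone libraries, the median RPKM was 6680 for SPP1, 2006 for IBSP, 848 for DMP1 and 475 for MEPE. It was 127 for BGLAP, 54.3 for ALPL and 52.4 for RUNX2. The lowest medians were 29.0 for SOST, 23.9 for PHEX and 10.4 for SP7. The acidic matrix proteins were thus far above the enzyme and the transcription factors. Each of the first 4 genes exceeded the next in at least 9 of 12 libraries, whereas ALPL exceeded RUNX2 in 7 and SOST exceeded PHEX in 7, so the order within those pairs was not stable. SPP1 was the highest member in 11 libraries and was among the 10 highest of all genes in 8. In DPLBJ replicate 3 the highest was IBSP.

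**Figure D1:**
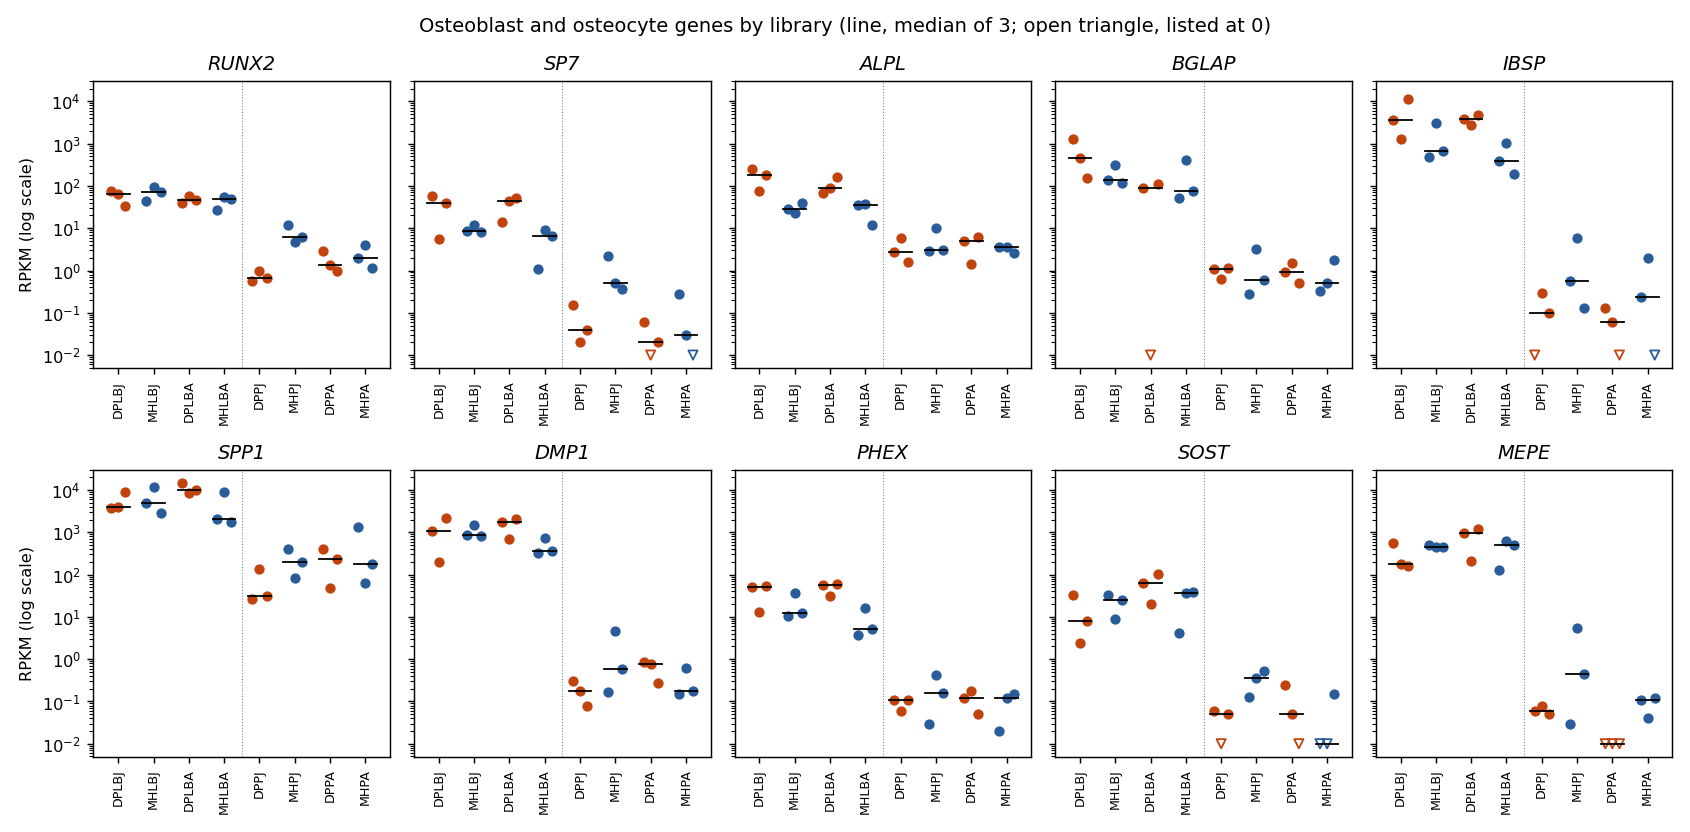
RPKM of each gene in the 24 libraries on a log axis, in 8 groups of 3 (long bone left of the dotted line, pituitary right; orange, DPs; blue, MHs; line, median of 3). An open triangle marks a library in which the gene was listed at 0, drawn at the foot of the axis. All 10 genes had higher medians in the long bone than in the pituitary.

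The tissue comparison asked where these genes are read. All 10 were differentially expressed genes (DEGs), higher in the long bone, with edgeR's quasi-likelihood test over the 24 libraries. Genes counted as DEGs, by the threshold of the study, changed more than 2-fold with P below 0.05 before adjustment, and of all 16131 genes tested 17.4% were DEGs higher in the long bone. The 10 also passed with a Benjamini-Hochberg (BH) adjusted p, from 2.13e-10 to 8.86e-07, as did 38.3% of all genes in either direction. The log2 difference (long bone minus pituitary, ± SE) was smallest for ALPL (4.16 ± 0.364), RUNX2 (4.78 ± 0.274) and SPP1 (5.05 ± 0.595). It was 7.06 ± 0.600 for SP7, 7.69 ± 0.785 for BGLAP, 7.77 ± 0.477 for PHEX and 8.16 ± 0.662 for SOST. DMP1 (10.99 ± 0.672), MEPE (12.53 ± 0.792) and IBSP (12.58 ± 0.954) had the largest differences. MEPE had no read in DPPA, so its fitted value depends on the small prior count that the fit adds. The libraries of the tissues did not overlap for 8 of the 10 genes, against 2.83% of all genes. The exceptions were BGLAP, because of the 0 in DPLBA replicate 2, and SP7, whose level in MHLBA replicate 1 (1.06 RPKM) was below that in MHPJ replicate 1 (2.22 RPKM). SOST and MEPE passed the filter on low counts only through the long bone libraries. The numbers of members called and not overlapping are thus not read against the shares of all genes. Without the 5 pituitary libraries that were low in hormone markers, the 10 genes were again DEGs, with log2 differences from 4.51 to 14.22.

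Between the breeds, a subset of the bone genes was higher in DPs at each stage. The members were chosen with earlier results of these data known, so their counts are not an independent test against all genes. In the juvenile long bone, 3 of the 10 genes (SP7, ALPL and BGLAP) were DEGs, all higher in DPs, against 8.33% of the 13755 genes tested that were DEGs higher in DPs and 5.47% lower. The median log2 fold change (DP minus MH) was 0.63 over the 10 genes and 0.053 over all genes. In the adult long bone, 5 genes (SP7, ALPL, IBSP, DMP1 and PHEX) were DEGs, again higher in DPs, with backgrounds of 10.3% higher and 8.03% lower among 14073 genes. Here the median was 1.44 over the 10 genes and -0.035 over all genes. None of the 10 passed a BH adjusted p under 0.05 at either stage, where 0% of all genes passed in juveniles and 2.24% in adults. An unadjusted P under 0.05 was found for 17.8% of all genes and for the 3 DEGs in juveniles. By CPM after TMM scaling, the breeds did not overlap, with DPs higher, for ALPL in juveniles and for SP7, ALPL, IBSP, SPP1 and PHEX in adults, against 9.76% and 15.7% of all genes. These p-values rest on the spread among the 3 animals within each group, which edgeR moderates with the spread of all genes tested. An exact permutation test of 3 against 3 cannot go below 0.1.

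**Figure D2:**
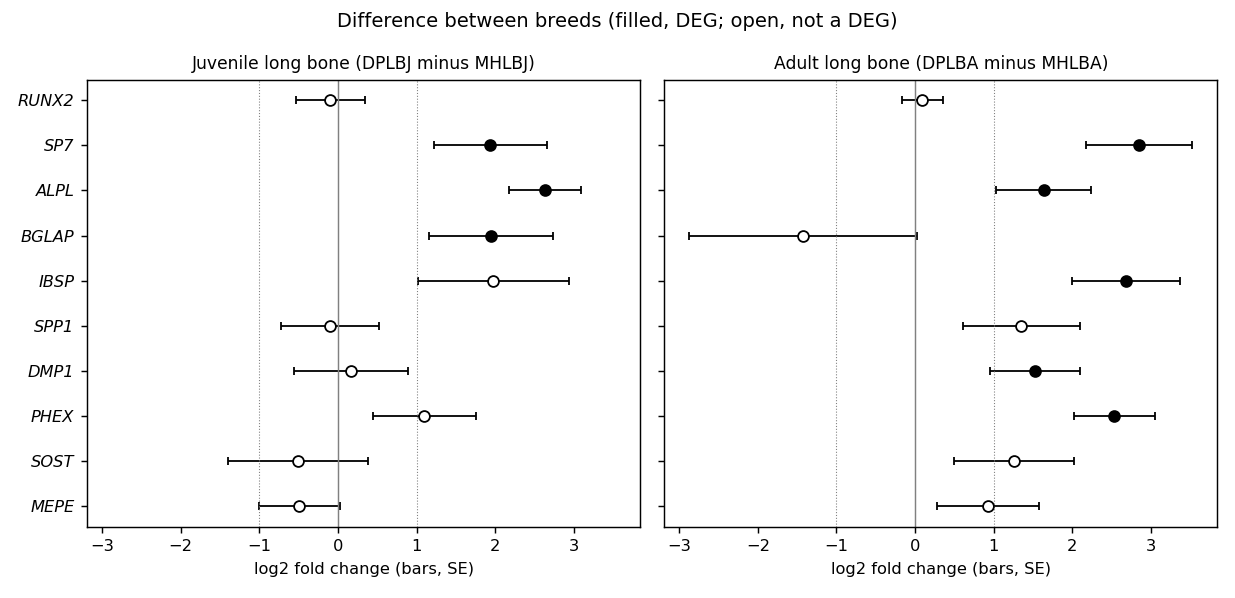
Log2 fold change between the breeds (DP minus MH) in the juvenile and the adult long bone, from edgeR with 3 libraries per group. Points are estimates, bars are 1 SE, filled points are DEGs and dotted lines mark a fold change of 2. RUNX2 lies near 0 at both stages, whereas SP7 and ALPL are filled at both.

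RUNX2 (ENSECAG00000020875), the factor that commits cells to the osteoblast lineage, did not separate the breeds. Its reads in replicates 1, 2 and 3 were 1911, 1849 and 1061 in DPLBJ and 1039, 3744 and 2583 in MHLBJ. In adults they were 1224, 2362 and 1624 in DPLBA and 892, 2678 and 1105 in MHLBA. The median RPKM in juveniles was 64.2 in DPLBJ against 71.7 in MHLBJ, and in adults 47.0 in DPLBA against 49.8 in MHLBA. No DP library was above all MH libraries, and the 12 values spanned only 3.51-fold, the narrowest range of the 10 genes. Between the breeds, the log2 fold change was -0.10 ± 0.436 in juveniles (adjusted p = 0.931, edgeR) and 0.09 ± 0.260 in adults (adjusted p = 0.867).

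SP7 (ENSECAG00000020140), the zinc finger factor that acts after RUNX2, was higher in DPs. Its reads were 1666, 184 and 1460 in DPLBJ and 229, 554 and 349 in MHLBJ, then 494, 2081 and 2124 in DPLBA and 41, 499 and 165 in MHLBA. As RPKM, DPLBJ had 57.6, 5.51 and 39.2 and MHLBJ had 8.46, 12.02 and 8.36. DPLBA had 14.1, 42.9 and 53.0 and MHLBA had 1.06, 8.86 and 6.41. DPLBJ replicate 2 lay below all 3 MHLBJ libraries, whereas the adult groups did not overlap. For SP7 the log2 fold change was 1.94 ± 0.716 in juveniles (adjusted p = 0.234, edgeR) and 2.85 ± 0.677 in adults (adjusted p = 0.0701). The juvenile call did not hold when DPLBJ replicate 1 or 3 or any of the MHLBJ libraries was left out (log2 fold changes from 1.24 to 2.12), while the adult call held without each library (2.44 to 3.37).

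ALPL (ENSECAG00000011467), the phosphatase that removes pyrophosphate and frees phosphate for mineral, separated the breeds most clearly. Its reads were 9439, 3331 and 8792 in DPLBJ, 974, 1355 and 2174 in MHLBJ, 3090, 5562 and 8402 in DPLBA and 1786, 2787 and 405 in MHLBA. The RPKM values were 253, 77.2 and 183 in DPLBJ against 27.8, 22.8 and 40.3 in MHLBJ. They were 68.2, 88.7 and 162 in DPLBA against 35.9, 38.3 and 12.2 in MHLBA. All 6 DP libraries (median 126 RPKM) were above all 6 MH libraries (median 31.9 RPKM), which held for no other of the 10 genes. On the log2 scale the breeds differed by 2.64 ± 0.459 in juveniles, a 6.21-fold difference (adjusted p = 0.136, edgeR). Over the alternative settings, the adjusted p ran from 6.09e-06 to 0.492. Leaving out any 1 library kept the juvenile call (2.19 to 2.96). In adults it was 1.64 ± 0.606 (adjusted p = 0.156), and that call did not hold without DPLBA replicate 3 (1.24) or MHLBA replicate 2 (1.69).

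BGLAP (ENSECAG00000023964), a small vitamin K-dependent protein of mature osteoblasts, varied from library to library. It had 7094, 2907 and 1105 reads in DPLBJ, 695, 2686 and 930 in MHLBJ, 595, 0 and 844 in DPLBA and 381, 4333 and 360 in MHLBA. The RPKM values were 1303, 462 and 158 in DPLBJ and 136, 309.6 and 118 in MHLBJ. Adult values were 90.2, 0 and 112 in DPLBA and 52.5, 409 and 74.3 in MHLBA. A single library was high in DPLBJ and another in MHLBA. In juveniles the log2 fold change was 1.94 ± 0.791 (adjusted p = 0.265, edgeR). Without DPLBJ replicate 1 it was 0.91, and that call also did not hold without DPLBJ replicate 2 (2.10), MHLBJ replicate 1 (1.75) or MHLBJ replicate 3 (1.68). In adults it was -1.42 ± 1.45 (adjusted p = 0.587, edgeR), and -0.82 (adjusted p = 0.587) without DPLBA replicate 2.

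IBSP (ENSECAG00000024478), a mineral-nucleating sialoprotein, had among the widest ranges, 59.1-fold over the 12 libraries. It had 65369, 26650 and 264890 reads in DPLBJ, 8220, 88900 and 18084 in MHLBJ, 84734, 84965 and 118393 in DPLBA and 9620, 36959 and 3101 in MHLBA. The RPKM values were 3556, 1256 and 11198 in DPLBJ and 478, 3035 and 682 in MHLBJ. In adults DPLBA had 3803, 2755 and 4652, and MHLBA had 393, 1033 and 189.6. The juvenile groups overlapped through MHLBJ replicate 2 and DPLBJ replicate 2, and the adult groups did not overlap. The log2 fold change was 1.98 ± 0.956 in juveniles (adjusted p = 0.332, edgeR), below the threshold. It became a DEG there when MHLBJ replicate 2 (3.27) or DPLBJ replicate 2 (2.42) was left out, and with DESeq2 (1.99, adjusted p = 0.120). In adults it was 2.68 ± 0.682, a 6.42-fold difference (adjusted p = 0.0790), and held without each library (2.25 to 3.27).

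SPP1 (ENSECAG00000017191), which is also made by osteoclasts and macrophages, was abundant in every group. Its reads were 82691, 98846 and 253990 in DPLBJ, 100329, 398281 and 87474 in MHLBJ, 387775, 301443 and 295538 in DPLBA and 58375, 369895 and 34503 in MHLBA. The median RPKM in juveniles was 3987 in DPLBJ against 4991 in MHLBJ, and in adults 9940.1 in DPLBA against 2041 in MHLBA. The lowest DPLBA library (8369 RPKM) lay below MHLBA replicate 2 (8847 RPKM), although by TMM-scaled CPM the adult groups did not overlap. The breed difference of SPP1 was -0.10 ± 0.618 on the log2 scale in juveniles (adjusted p = 0.950), turning to 0.64 without MHLBJ replicate 2. In adults it was 1.35 ± 0.747 (adjusted p = 0.309 with edgeR and from 0.0865 to 0.559 over the alternatives), and SPP1 became a DEG with DESeq2 (1.35, adjusted p = 0.0865).

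DMP1 (ENSECAG00000004158), the matrix protein that keeps osteocytic FGF23 low, was a DEG in adults and not in juveniles, and the difference between the stages did not pass its test (adjusted p = 0.971, edgeR). It had 32842, 7160 and 87721 reads in DPLBJ, 25453, 75252 and 36467 in MHLBJ, 67468, 29223 and 88779 in DPLBA and 13622, 43939 and 9963 in MHLBA. The median RPKM was 1061 in DPLBJ (200.4 to 2203), 879 in MHLBJ (817 to 1526), 1799 in DPLBA (689 to 2072) and 362 in MHLBA (331 to 729). The groups overlapped at both stages. The log2 fold change was 0.17 ± 0.724 in juveniles (adjusted p = 0.926) and turned to -0.41 with limma on log2(RPKM + 1). In adults it was 1.53 ± 0.573 (adjusted p = 0.160, edgeR), and the call did not hold without DPLBA replicate 1 (1.41), DPLBA replicate 3 (1.21) or MHLBA replicate 3 (1.29). In DPLBA replicate 2, the ratio of the deposited RPKM to the value computed from the reads was 0.888 for DMP1 and 1.04 for SOST, against 0.726 for each other member with reads, so the RPKM of these 2 genes did not follow their reads in that library.

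PHEX (ENSECAG00000011455), the peptidase whose loss causes phosphate wasting, had the lowest adjusted p of the 10 genes between the adult breeds. It had 2905, 847 and 3941 reads in DPLBJ, 547, 3309 and 987 in MHLBJ, 3943, 2896 and 4661 in DPLBA and 273, 1809 and 254 in MHLBA. The RPKM values were 52.2, 13.2 and 55.0 in DPLBJ and 10.5, 37.3 and 12.3 in MHLBJ. They were 58.5, 31.0 and 60.5 in DPLBA and 3.68, 16.7 and 5.13 in MHLBA. All 3 DPLBA libraries were above all 3 MHLBA libraries, and in each stage the MH library in replicate 2 was the highest of its group. The log2 fold change was 1.097 ± 0.656 in juveniles (adjusted p = 0.424, edgeR), and PHEX became a DEG without DPLBJ replicate 2 (1.49) or MHLBJ replicate 2 (1.92). In adults it was 2.53 ± 0.513, a 5.78-fold difference (adjusted p = 0.0519, edgeR), and the call held without each library (2.23 to 3.29).

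SOST (ENSECAG00000013386), the secreted WNT inhibitor, had reads of 398, 34 and 126 in DPLBJ, 380, 178 and 455 in MHLBJ, 939, 296 and 1810 in DPLBA and 70, 870 and 436 in MHLBA. The median RPKM in juveniles was 7.96 in DPLBJ against 25.6 in MHLBJ, and in adults 62.9 in DPLBA against 36.3 in MHLBA, and the groups overlapped at both stages. MEPE (ENSECAG00000024351), an osteocyte matrix phosphoprotein, had 13303, 4873 and 5003 reads in DPLBJ, 11491, 17085 and 15567 in MHLBJ, 28470, 8528 and 39876 in DPLBA and 4170, 28893 and 11116 in MHLBA. Its median RPKM in juveniles was 174 in DPLBJ against 445 in MHLBJ, and in adults 968 in DPLBA against 515 in MHLBA. These osteocyte genes were not DEGs between the breeds. The log2 fold change of SOST was -0.51 ± 0.892 in juveniles (adjusted p = 0.804) and 1.26 ± 0.760 in adults (adjusted p = 0.350), and that of MEPE was -0.49 ± 0.519 (adjusted p = 0.661) and 0.93 ± 0.646 (adjusted p = 0.415), by edgeR. DPLBJ replicate 1 was high for both genes. Without it, both were DEGs lower in juvenile DPs (SOST -2.04, adjusted p = 0.108; MEPE -1.33, adjusted p = 0.0449), and without DPLBA replicate 2 both were DEGs higher in adult DPs (1.73 and 1.38).

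Other genes of bone formation were counted from 4 lists. The lists were chosen with earlier results of these data known, so their counts are not an independent test against all genes. In the list of bone matrix and collagen assembly, 15 of 17 genes were found and tested. Of these, 8 were DEGs higher in juvenile DPs and 0 lower, and 10 were DEGs higher in adult DPs and 0 lower. Of all genes, 8.33% were DEGs higher in juvenile DPs and 10.3% in adult DPs. All 15 genes of the list had a positive log2 fold change at each stage, with medians of 1.38 and 1.57. Their sums overlapped between the breeds at both stages. They were 95428, 10543 and 44222 CPM in DPLBJ and 8297, 20234 and 8100 CPM in MHLBJ. In adults they were 15907, 90418 and 37272 CPM in DPLBA and 4012, 22597 and 5074 CPM in MHLBA. The lowest P in juveniles belonged to FKBP10 (2.11 ± 0.525, adjusted p = 0.150 with edgeR), a collagen chaperone, IFITM5 (2.43 ± 0.619), an osteoblast membrane protein, TMEM38B (1.50 ± 0.465), an ion channel of the endoplasmic reticulum, and SERPINH1 (1.34 ± 0.427), a collagen chaperone. In adults it belonged to IFITM5 (2.98 ± 0.571, adjusted p = 0.0434), PLOD2 (1.38 ± 0.332), a collagen lysyl hydroxylase, POSTN (4.64 ± 1.15), a matrix protein of periosteum, and COL24A1 (1.90 ± 0.491), a fibrillar collagen.

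In the list of phosphate, pyrophosphate and mineral genes, all 13 were found. In juveniles 12 were tested, of which 3 were DEGs higher in DPs and 1 lower, against 8.33% and 5.47% of all genes. They were PHOSPHO1 (3.59 ± 0.708, adjusted p = 0.136 with edgeR), a phosphatase of matrix vesicles, GALNT3 (1.997 ± 0.508), which glycosylates FGF23, FAM20C (1.09 ± 0.397), a kinase of secreted proteins, and ANKH (-1.02 ± 0.423), which exports pyrophosphate. In adults 11 were tested, of which 2 were DEGs higher and 1 lower, against 10.3% and 8.03% of all genes. PHOSPHO1 (4.56 ± 0.855, adjusted p = 0.0422) and FAM20C (1.51 ± 0.399) were higher, and the phosphate carrier SLC20A1 (-3.11 ± 1.11) was lower. The SLC20A1 level was 63.7, 74.3 and 1118 CPM in the MHLBA libraries in rising order, so that value rests on 1 library. ALPL and PHOSPHO1, both phosphatases of mineralization, were thus DEGs higher in DPs at both stages.

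Among transcription factors and hormone receptors of osteoblasts, 10 of 12 genes were found. For comparison, DEGs among all genes were 8.33% higher and 5.47% lower in juvenile DPs, and 10.3% and 8.03% in adult DPs. Of 9 tested in juveniles, 2 were DEGs higher in DPs, ATF4 (1.46 ± 0.381) and CREB3L1 (1.43 ± 0.570), and 2 were lower, VDR (-1.29 ± 0.533) and CBFB (-1.86 ± 0.242, adjusted p = 0.136 with edgeR). CBFB, the binding partner of RUNX2, ranged from 63.2 to 84.3 CPM in DPLBJ and from 235 to 297 CPM in MHLBJ. In adults 10 were tested, with 4 DEGs higher, the lowest P being those of PTH1R (1.16 ± 0.375), DLX5 (1.84 ± 0.616) and VDR (1.45 ± 0.486), and 1 lower, again CBFB (-1.21 ± 0.424). VDR, the vitamin D receptor, thus had opposite signs at the 2 stages, and the difference between the stages was itself a DEG (-2.79 ± 0.783, adjusted p = 0.971). Among osteocyte partners of WNT signaling and gap junctions, 7 of 9 genes were found and 6 tested. None was a DEG in juveniles by edgeR, and 3 were higher in adult DPs, against 10.3% of all genes. Those 3 were the secreted WNT inhibitors WIF1 (1.86 ± 0.499) and DKK1 (2.31 ± 0.722), and CAPG (1.75 ± 0.616), an actin-capping protein.

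Markers of other cell types differed between the breeds in the same libraries. The 11 cartilage markers found summed to 2719, 7454 and 29945 CPM in DPLBJ and to 173, 217 and 185 CPM in MHLBJ. In adults the sums were 13432, 1573 and 30376 CPM in DPLBA and 2330, 315 and 282 CPM in MHLBA. COL10A1, the collagen of hypertrophic chondrocytes, was at 0 in at least 1 library of DPLBJ and MHLBA. Of these markers, 9 of 9 tested were DEGs higher in juvenile DPs and 4 of 10 in adult DPs. The shares of all genes that were DEGs higher in DPs were 8.33% in juveniles and 10.3% in adults. The 6 neutrophil markers found summed to 15.1, 10372 and 1666 CPM in DPLBJ, against 9.99 to 118 CPM in MHLBJ, and to 1160 CPM or more in DPLBA, against at most 94.7 CPM in MHLBA, and all 6 were DEGs higher in DPs at both stages. In DPLBJ replicate 1 the neutrophil sum was at the MH level, and the cartilage sum of 2719 CPM was above every MH sum. The ALPL level of that library was the highest of the 12. The part of the cartilage and neutrophil markers in the breed differences of the bone genes was not tested.

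**Figure D3:**
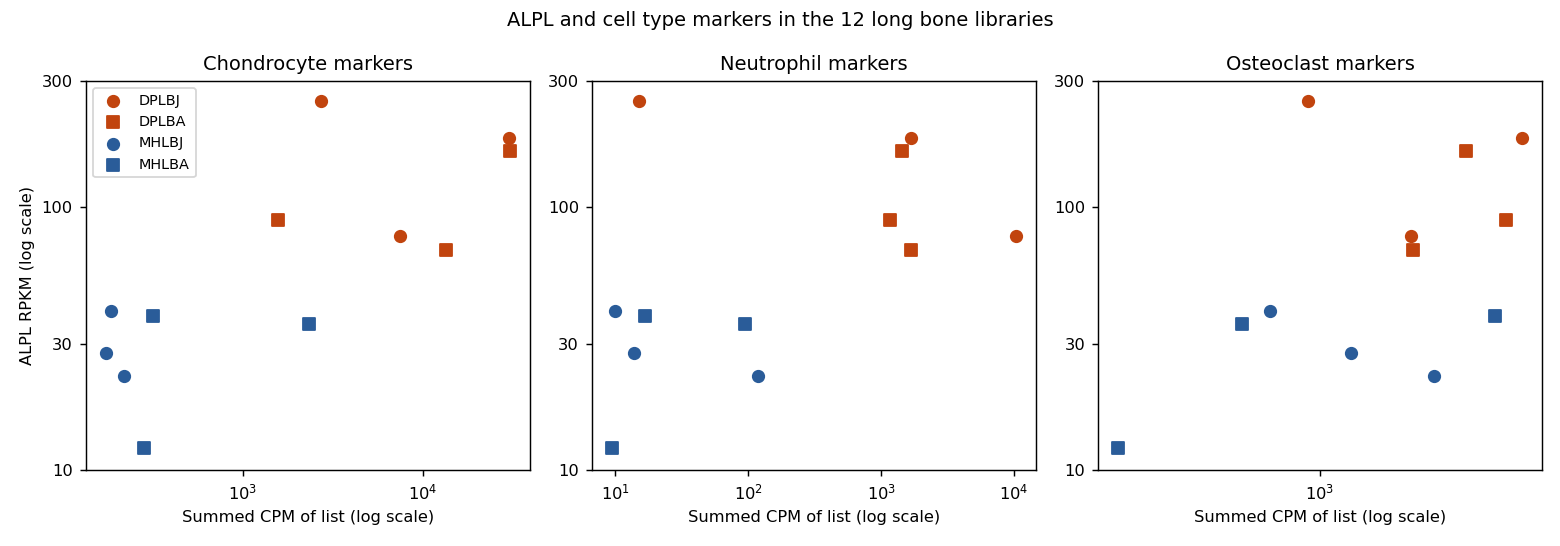
ALPL level (RPKM, log axis) against the summed CPM (log axis) of chondrocyte, neutrophil and osteoclast markers in the 12 long bone libraries. Orange, DPs; blue, MHs; circles, juveniles; squares, adults. DP libraries lie above MH libraries on the ALPL axis in each panel, 1 MH library crosses into the DP range on the chondrocyte axis, 1 DP library lies in the MH range on the neutrophil axis, and the breeds overlap on the osteoclast axis.

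The 8 osteoclast markers found overlapped between the breeds, with 930 to 3657 CPM in DPLBJ and 725 to 2075 CPM in MHLBJ, and 1815 to 3288 CPM in DPLBA and 274 to 3072 CPM in MHLBA. None of 8 was a DEG in juveniles by edgeR and 1 of 8 was in adults. For this and the counts that follow between breeds, the shares of all genes in juvenile DPs were 8.33% higher and 5.47% lower. In adult DPs they were 10.3% and 8.03%. Adipocyte markers (6 of 6 tested) were DEGs lower in juvenile DPs, with 0 of 6 in adults by edgeR, and striated muscle markers were lower in 5 of 6 tested in juveniles and in 4 of 4 in adults. The muscle sums were 23.3, 51.3 and 573 CPM in MHLBJ in rising order, against 5.52 to 8.53 CPM in DPLBJ. In adults they were 8.82, 17.7 and 382 CPM in MHLBA, against 4.46 to 8.23 CPM in DPLBA. At each stage 1 MH library was thus far above the rest. Erythroid markers were DEGs higher in DPs in 5 of 5 tested in juveniles and 1 of 2 in adults. Their sums were 1.09, 1982 and 2171 CPM in DPLBJ, against at most 4.68 in MHLBJ, and 1.24, 53.0 and 0.716 CPM in DPLBA, against 1.01 to 3.87 in MHLBA, so that DPLBJ replicate 1 was at the MH level and in adults DPLBA replicate 2 alone was high. Of the macrophage markers, 1 of 6 was lower in juvenile DPs and 3 of 6 were higher in adult DPs, and of the endothelial markers 2 of 5 and then 1 of 5 were lower in DPs. Between stages, 6 of 8 cartilage markers tested were DEGs lower in juvenile MHs, and 6 of 7 erythroid markers were DEGs higher in juvenile DPs. Of all genes, 2.91% in MHs and 3.14% in DPs were DEGs in either direction. The cartilage sum was 2330 CPM in MHLBA replicate 1, against 315 and 282 CPM in replicates 2 and 3 and 173 to 217 CPM in MHLBJ. The erythroid sum of DPLBJ replicate 1 (1.09 CPM) was at the level of DPLBA replicates 1 and 3.

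Between juveniles and adults, none of the 10 genes was a DEG in the long bone of either breed. In MHs the edgeR log2 fold changes (juvenile minus adult) ran from -0.27 to 1.20, every adjusted p being 0.998, and 8 genes were higher in juveniles. Of all 13899 genes, 2.91% were DEGs and 4.27% had an unadjusted P under 0.05, and none of the 10 genes did. DMP1 came nearest (1.01 ± 0.455, adjusted p = 0.998). Its 3 juvenile libraries were above its 3 adult ones, a pattern shown with juveniles higher by 4.58% of all genes. It was a DEG with DESeq2, with limma on either scale and without TMM normalization. Without MHLBA replicate 2, BGLAP, DMP1 and PHEX were DEGs higher in juveniles.

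In DPs the stage comparison gave log2 fold changes from -2.04 (SOST) to 3.37 (BGLAP), with adjusted p from 0.988 to 0.997. The backgrounds were 3.14% DEGs and 4.31% with an unadjusted P under 0.05 among 13866 genes, and none of the 10 genes was in either set. The 4 osteocyte genes DMP1, PHEX, SOST and MEPE were all lower in juveniles by their estimates (median -0.85), with no P under 0.05. BGLAP was higher in all 3 juveniles (background 4.33%) and SPP1 lower by TMM-scaled CPM (background 4.68%). The BGLAP value takes in the 0 of DPLBA replicate 2. Without that library, BGLAP was a DEG higher and SOST and MEPE were DEGs lower in juveniles, and SOST was a DEG with DESeq2 and limma. The test of whether the breed difference changed with stage found no DEG among the 10 genes by edgeR, DESeq2 or limma (adjusted p from 0.971 to 0.991 by edgeR), against 4.17% DEGs and 4.48% with an unadjusted P under 0.05 among 14735 genes. It gave 2 DEGs without DPLBJ replicate 1 (SOST and MEPE), 2 without MHLBA replicate 2 (SPP1 and PHEX) and 1 without DPLBA replicate 2 (MEPE).

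Of the 4 lists, the stage comparison called SLC20A1 in MHs (-2.95 ± 1.13, adjusted p = 0.998 with edgeR) and VDR (-1.64 ± 0.505) and DKK1 (-1.59 ± 0.533) in DPs, all lower in juveniles. The SLC20A1 value rests on the same MHLBA library, at 1118 CPM, as its breed value. None of the 15 bone matrix genes was a DEG between stages in either breed.

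In the pituitary only SPP1 was abundant, and the other genes were at trace level. SPP1 had 759, 4243 and 1084 reads in DPPJ, 11533, 1594 and 5162 in MHPJ, 14456, 1751 and 7147 in DPPA and 32075, 1452 and 4149 in MHPA. Its RPKM ran from 26.1 to 1342 with a median of 159, and it was the highest of the 10 genes in every pituitary library. ALPL was second by median RPKM (3.305), although RUNX2 was above it in MHPJ replicates 1 and 3 and MHPA replicate 2, and BGLAP in DPPA replicate 2. It had 142, 319 and 97 reads in DPPJ, 138, 348 and 140 in MHPJ, 296, 92 and 329 in DPPA and 149, 145 and 103 in MHPA. No DEG among the adult pituitary libraries involved the 10 genes: 4 were tested, and 0 were DEGs by edgeR, DESeq2 or limma or had an unadjusted P under 0.05 (adjusted p from 0.653 to 0.935), against 2.93% and 9.11% of 14376 genes. This was also so without the libraries low in hormone markers.

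RUNX2 was lower in the juvenile DP pituitary, with 19, 35 and 26 reads in DPPJ against 378, 108 and 188 in MHPJ. It had 119, 56 and 35 reads in DPPA and 54, 107 and 30 in MHPA. The juvenile log2 fold change was -3.55 ± 0.430 (adjusted p = 0.0143, edgeR), and the call held without each library. SP7 had 6, 1 and 2 reads in DPPJ and 83, 13 and 13 in MHPJ, a log2 fold change of -3.90 ± 1.03 (adjusted p = 0.0628). In 2 of the DPPJ libraries its reads cannot be told apart from 0. DMP1 had 13, 8 and 4 reads in DPPJ and 7, 130 and 22 in MHPJ (-3.47 ± 1.35, adjusted p = 0.141), and its call did not hold without MHPJ replicate 2 (-1.16) or without any 1 of the DPPJ libraries (-4.03 to -3.09). RUNX2 and SP7 did not overlap between the breeds. Among all 14603 genes tested, 12.7% were DEGs lower in DPs and 8.73% passed the adjusted threshold in either direction. SP7 passed the filter on low counts only through the MHPJ libraries, so the number of members called is not read against these shares. Groups that did not overlap with DPs lower made up 17.3% of all genes. The 3 MHPJ libraries all lack anterior pituitary markers, so breed and this feature cannot be told apart here.

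**Figure D4:**
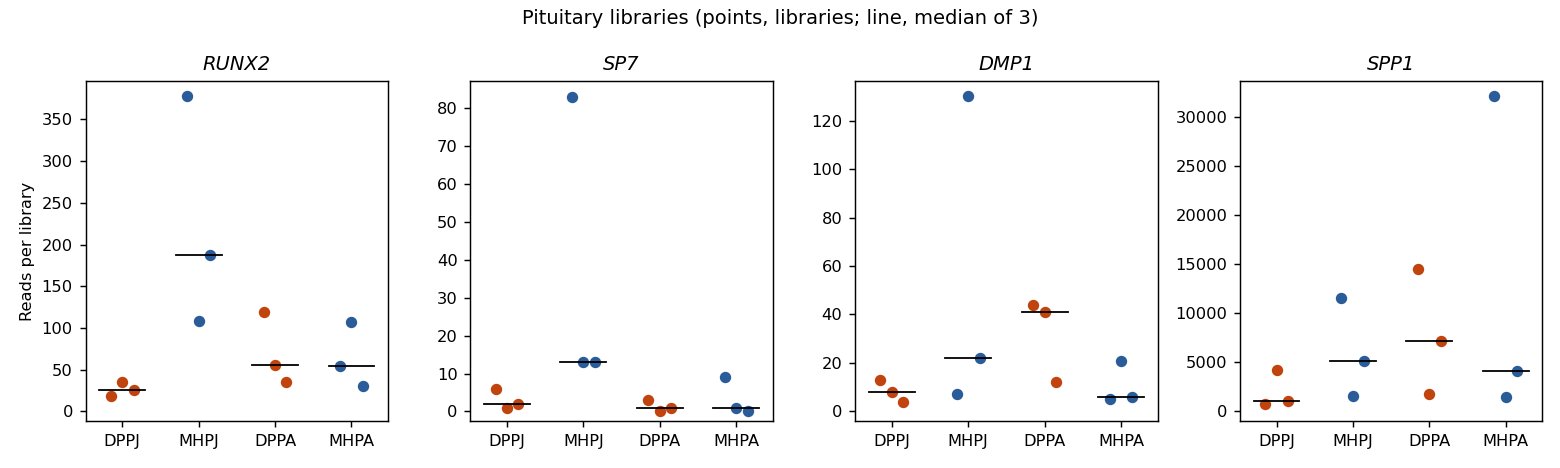
Reads of RUNX2, SP7, DMP1 and SPP1 in the 12 pituitary libraries, with a separate linear axis for each gene (orange, DPs; blue, MHs; line, median of 3). The 3 MHPJ libraries have 108 to 378 RUNX2 reads, above the 19 to 35 of DPPJ, and 1 MHPJ library holds 130 of the DMP1 reads.

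The remaining members had few pituitary reads. BGLAP had 8, 5 and 10 in DPPJ, 2, 16 and 4 in MHPJ, 8, 14 and 4 in DPPA and 2, 3 and 10 in MHPA. IBSP had 0, 8 and 3 in DPPJ, 13, 98 and 3 in MHPJ, 4, 2 and 0 in DPPA and 5, 39 and 0 in MHPA. PHEX had 8, 5 and 10 in DPPJ, 2, 21 and 11 in MHPJ, 11, 17 and 4 in DPPA and 1, 7 and 9 in MHPA. At most 3 reads, which cannot be told apart from 0, were found for SOST in 9 and for MEPE in 10 of the 12 libraries. The same held for SP7 in 7 and for IBSP in 6 libraries. SOST had 1, 0 and 1 reads in DPPJ, 2, 4 and 8 in MHPJ, 5, 1 and 0 in DPPA and 0, 0 and 2 in MHPA. MEPE had 2, 3 and 2 in DPPJ, 1, 119 and 13 in MHPJ, 0 in each DPPA library and 3, 1 and 3 in MHPA. SP7 had 3, 0 and 1 in DPPA and 9, 1 and 0 in MHPA, and DMP1 had 44, 41 and 12 in DPPA and 5, 21 and 6 in MHPA. MHPJ replicate 2, the library with striated muscle markers, had the most reads of BGLAP, IBSP, DMP1, PHEX and MEPE of all 12. Whether these reads came from the pituitary cells was not tested.

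Between stages, the MH pituitary gave 1 DEG among the 6 members tested, RUNX2 higher in juveniles (1.87 ± 0.562, adjusted p = 0.381, edgeR), against 4.5% of 14430 genes that were DEGs higher in juveniles. Without MHPJ replicate 1 it was no longer a DEG (1.52). The 3 anterior pituitary markers tested were all DEGs lower in juvenile MHs, with a median log2 fold change of -12.20, and their part in the RUNX2 value was not tested. The DP pituitary gave 2 of 4 tested, RUNX2 (-1.44 ± 0.549, adjusted p = 0.422) and DMP1 (-1.91 ± 0.717, adjusted p = 0.419), both lower in juveniles. Of all 14533 genes, 2.64% were such DEGs. DMP1 passed the filter on low counts only through the DPPA libraries, so the number of members called is not read against this share. Neither RUNX2 nor DMP1 was a DEG without DPPA replicate 1 (-0.76 and -1.58) or without DPPJ replicate 3 (-1.34 and -1.53). DPPA replicate 1 was the DPPA library low in anterior pituitary markers, and the part of this in both values was not tested. Without DPPJ replicate 1 RUNX2 lost its call (-1.31), and without DPPA replicate 2 (-1.76) or DPPJ replicate 2 (-1.85) DMP1 did. The breed-by-stage test called RUNX2 and DMP1, 2 of 8 members tested, by unadjusted P, with juvenile DPs relatively lower. Their adjusted p was 0.153 and 0.179 (edgeR), and 8.87% of 15200 genes were such DEGs. SP7 passed the filter on low counts through the MHPJ libraries, so the number called is not read against this share. The DMP1 call did not hold without MHPJ replicate 2. All 3 MHPJ libraries were low in anterior pituitary markers, and the part of this in both values was not tested.

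Finally, the genes were compared by their pattern over the 12 long bone libraries, as a description. Pearson's r of log2(CPM + 0.5) was 0.94 between IBSP and PHEX, 0.90 between SOST and MEPE and 0.85 between SP7 and PHEX. ALPL was most like IBSP (0.79), SPP1 most like PHEX (0.80) and DMP1 most like PHEX (0.77). SOST and MEPE were closest to each other. Their r was -0.01 and 0.02 to IBSP and 0.25 and 0.30 to PHEX, but 0.45 and 0.43 to DMP1, and that of SOST to SP7 was 0.37. The highest r of RUNX2 was 0.25, with BGLAP, a value that takes in the 0 of BGLAP in DPLBA replicate 2. Spearman's rho of that pair was 0.45. The 12 libraries are those of the breed and stage comparisons, and their depth and cell makeup differ.

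**Figure D5:**
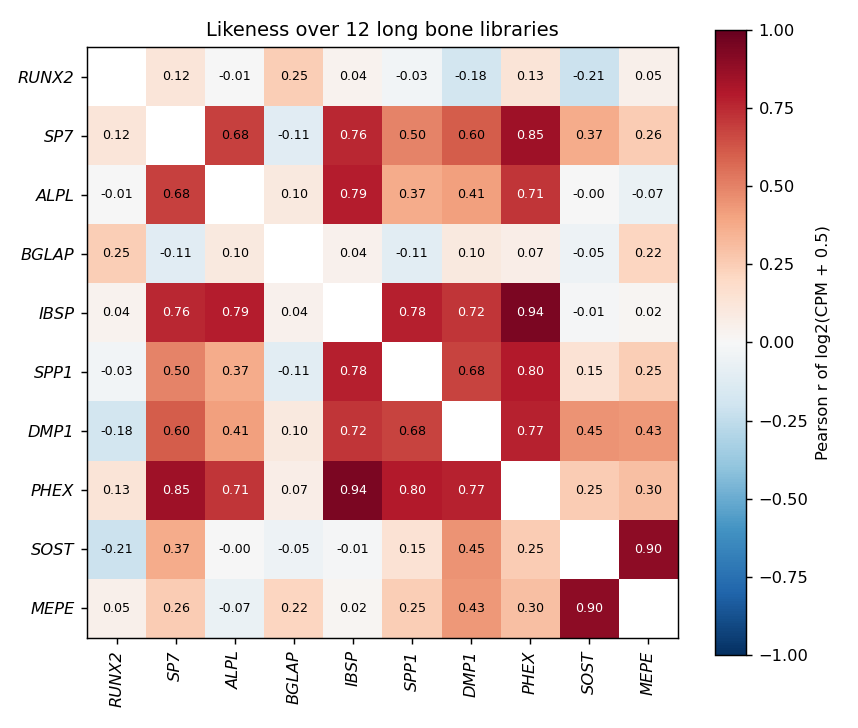
Pearson's r of log2(CPM + 0.5) between the 10 genes over the 12 long bone libraries (red, positive; blue, negative; the diagonal is left blank). Pairs among IBSP, PHEX, SP7, SPP1, DMP1 and ALPL have r from 0.37 to 0.94, SOST and MEPE have 0.90 with each other and 0.45 and 0.43 with DMP1, and RUNX2 and BGLAP have r of at most 0.25 with any other member.

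Ratios to IBSP within a library were also compared, as a description. The RPKM of MEPE divided by that of IBSP was 0.154, 0.139 and 0.0143 in DPLBJ and 0.255, 0.0761 and 0.255 in DPLBA. In MHs it was 1.06, 0.146 and 0.652 in MHLBJ and 0.328, 0.592 and 2.72 in MHLBA. The highest DP ratio was 0.255, and 5 of the 6 MH ratios were above it. This was not particular to MEPE. The ratio of DMP1 to IBSP was 0.298, 0.160 and 0.197 in DPLBJ and 0.473, 0.250 and 0.445 in DPLBA, against 1.84, 0.503 and 1.198 in MHLBJ and 0.841, 0.706 and 1.91 in MHLBA, so that all MH libraries were above all DP libraries. In DPLBA replicate 2 the DMP1 RPKM did not follow its reads. The ratio of SPP1 to IBSP ran from 0.821 to 3.92 in DPs and from 3.84 to 10.4 in MHs. That of ALPL to IBSP overlapped widely. IBSP, the shared denominator, was itself higher in adult DPs. Without it, the ratio of MEPE to DMP1 overlapped, from 0.0727 to 0.868 in DPs and from 0.290 to 1.42 in MHs.

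Among 13566 genes with a mean of at least 1 CPM, the 3 most like each member were as follows. RUNX2 was closest to SGCD (0.92), MMP16 (0.90) and MLIP (0.86), and SP7 to BAMBI (0.98), FGD1 (0.97) and RARG (0.97). ALPL was closest to COPG1 (0.93), CDK5 (0.92) and COL11A2 (0.91), a cartilage collagen that is in the chondrocyte list. IBSP was closest to GNL3 (0.97), PHEX (0.94) and PLCE1 (0.94), and PHEX to PREX1 (0.94), IBSP (0.94) and KIAA1549L (0.94). SPP1 was closest to SLC6A8 (0.93), MPEG1 (0.92) and SERPINE2 (0.92), and DMP1 to ADIPOR1 (0.95), ID4 (0.91) and ZNF629 (0.88). SOST was closest to MARK4 (0.95), CRTC1 (0.95) and ACTR1B (0.94), and MEPE to TCF7L1 (0.92), THRA (0.92) and CALCOCO1 (0.90). For BGLAP the closest were CCDC130 (0.87), C19orf53 (0.86) and U2SURP (0.85), all of which were also at 0 in DPLBA replicate 2. Without that library its r with CCDC130 was 0.36, and DNAH9 (0.92), CALML4 (0.87) and HCN3 (0.84) were closest.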

How the data were processed

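Per the labels and the study's methods, rRNA-depleted directional RNA libraries were made from snap-frozen tissue of 12 animals. The authors deposited whole read counts per gene and RPKM values for 24 libraries, and 0 sample columns were left unmatched. The submitters' processing notes name TopHat2 and edgeR and the labels name paired-end NextSeq reads, whereas the study's methods name Salmon and single-end GAIIx reads, so which tool made the deposited counts could not be settled. Counts were tested here with edgeR 4.0.16 in R 4.3.3 (TMM, filterByExpr with a minimum count of 10, quasi-likelihood test). A DEG had P under 0.05 and a fold change over 2. Breed and stage comparisons used their own 6 libraries, breed by stage 12 and tissue 24. The SE is the log2 fold change divided by the square root of F. RPKM was used for levels and for limma 3.58.1 on log2(RPKM + 1) or log2(RPKM + 0.1). DESeq2 1.42.0 was another alternative. Equal replicate numbers correlated above the limit for pairing in all 3 pairs of the adult pituitary breed comparison (0.384 to 0.650), and not in the other comparisons. Only the edgeR fit of the juvenile long bone breed comparison was tried on simulated counts, with the same dispersion for every gene. The spread of the real genes was not simulated. The members and lists were chosen with earlier results of these data known. Reads and RPKM were given for all members, tests for all members in the long bone breed and tissue comparisons and for DEGs elsewhere, and at most 4 genes per list by lowest P.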

Additional observations from a re-analysis of the deposited data

Results flagged for a closer look

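For 2 genes the breed difference in the pituitary differed between juveniles and adults by the interaction test of edgeR. For RUNX2 the interaction was -3.32 ± 0.814 on the log2 scale (adjusted p = 0.153, from 0.00365 to 0.343 over the alternatives), and the call held without each library. For DMP1 it was -4.65 ± 1.59 (adjusted p = 0.179, from 0.0337 to 0.364), and without MHPJ replicate 2 it was -2.42 (adjusted p = 0.211) and no longer called. All 3 MHPJ libraries were low in anterior pituitary markers, and the part of this in both values was not tested.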

How the results depend on the processing

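Counts of DEGs among the 10 genes depended on the setting except in the tissue comparison, which gave 10 under every alternative run. With an adjusted p under 0.05 in place of P, the juvenile (3) and adult (5) long bone breed counts, the MH (1) and DP (2) pituitary stage counts and the pituitary breed-by-stage count (2) became 0, and the juvenile pituitary breed count (3) became 1. With DESeq2 the stage counts were 1 in MH and 1 in DP long bone (0 by edgeR) and 3 in the MH pituitary. Without a low-count filter, counts were 7 in the juvenile and 1 in the adult pituitary between breeds, and between stages 2 in DP long bone, 2 in the MH and 4 in the DP pituitary. With limma on log2(RPKM + 1), counts were 1 in the juvenile long bone, 1 in the juvenile pituitary, 1 in MH and 2 in DP long bone between stages, 0 in the DP pituitary and 1 for breed by stage in the pituitary. With limma on log2(RPKM + 0.1) they were 1 in the juvenile long bone, 1 in MH and 1 in DP long bone, 2 in the MH and 1 in the DP pituitary, and 1 for breed by stage in the pituitary. Without TMM, counts were 1 in MH long bone and 1 in the DP pituitary between stages. With all 12 libraries of a tissue they were 1 in DP long bone, 3 in the MH and 1 in the DP pituitary.

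In the adult pituitary breed comparison, same-numbered libraries deviated together (r from 0.384 to 0.650, 5 of 6 libraries closest to their own number), and the fit with the replicate block gave 0 DEGs, as without it. In the other comparisons the numbers did not pair the samples, at least 1 pair having r under 0.1, and 10 of 24 libraries correlated best with their own number across tissues. With the replicate block the counts were 1 in juvenile and 3 in adult long bone between breeds, and between stages 2 in MH and 1 in DP long bone, 2 in the MH and 1 in the DP pituitary.

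Leaving out 1 library gave 1 to 4 DEGs in juvenile and 3 to 7 in adult long bone between breeds, 2 to 5 in the juvenile pituitary, 0 to 3 in MH and 0 to 3 in DP long bone between stages, 1 to 2 in the MH and 0 to 2 in the DP pituitary, 0 to 2 for breed by stage in the long bone and 1 to 3 in the pituitary. Signs turned, with no call, for juvenile DMP1 (0.17 by edgeR, -0.41 with limma on either scale, -0.14 with the replicate block, -0.58 to 0.66 without 1 library), juvenile SPP1 (-0.10, 0.053 with the block, -0.51 to 0.64 without 1 library), juvenile RUNX2 (-0.10, -0.35 to 0.23) and adult RUNX2 (0.09, -0.087 to 0.24). The cause was not tested. Leaving out TMM moved the median of all genes by -0.22 in the juvenile long bone breed comparison. The likeness of BGLAP without DPLBA replicate 2, and the fits without the pituitary libraries low in hormone markers, were chosen after seeing the data. With 3 libraries per group few reads limited SOST, MEPE, SP7 and IBSP in the pituitary.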
